A study of Rattus norvegicus with 24 samples.

Results

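The hemoglobin chains are described here in the peripheral blood of rats, with and without injections of lipopolysaccharide (LPS) and on 3 diets. All array probes were taken whose gene name begins with Hba, Hbb, Hbe, Hbg, Hbq or Hbz and whose description names a hemoglobin. This gave 10 probes of 7 gene names (Hba1, Hbb, Hbb-b1, Hbe1, Hbe2, Hbg1 and Hbz), out of 30367 probes that were not controls. No Hbq probe met the rule. The rule reads names and no measured value.

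Blood RNA of single male Sprague Dawley rats, aged 8 weeks at the start, was hybridized on 24 two-color arrays after 6 weeks of feeding. C-G0 rats received the control diet and LPS-G0 rats the control diet with LPS (10 mg/kg, into the tail vein). By the methods of the study, the injection was repeated after a week. C-G1 and LPS-G1 rats were fed the diet with oat beta-glucan of high molecular weight (G1), and C-G2 and LPS-G2 rats the diet with that of low molecular weight (G2), without and with LPS. The 3 C groups received saline on the same schedule. Each of the 6 groups had 4 arrays, and each of the 3 slides of 8 arrays held all 6 groups. The second channel held a common reference of pooled blood RNA, drawn from the whole experiment by the labels and, by the methods, from rats of every group other than those on the arrays. LPS-G0 replicates 3 and 4 carry LPS in their titles and control in another label field, and were used as LPS-G0. All values below are log2 ratios of Cy3 over Cy5, with the rat RNA in Cy3 as the sample labels state. The methods of the study name the dyes the other way round. Arrays of the same group varied more in Cy3, with a median SD of 0.383, than in Cy5, with a median of 0.257. Cy3 had the larger SD for 95.3% of the 7074 probes that were bright in both channels throughout. These signals were not scaled between arrays, so the SDs include array brightness and cannot settle the dyes. The study lists the red cell skeleton gene Dmtn as up in LPS-G0 vs. C-G0 and down in LPS-G1 vs. LPS-G0. Cy3 over Cy5 gave the same directions (1.03 and -1.61).

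Hemoglobin is a tetramer of alpha-like and beta-like chains, each holding a heme with an iron atom that binds oxygen. The alpha-like genes and the beta-like genes lie in separate clusters, and each cluster holds embryonic chains and adult chains that replace them during development. Mature red cells have no nucleus, so the globin mRNA of blood is carried over from the marrow, mostly in reticulocytes, the youngest red cells in the circulation. In whole blood RNA, fewer red cells and less RNA per red cell cannot be told apart.

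The probes are 60 bases long and were designed on mRNA, on the rn4 assembly, and all 10 lie on the minus strand. The alpha-like cluster on chromosome 10 held 2 probes named Hba1, an adult alpha chain whose accession is named Hba-a1 in the current RefSeq table (assembly GRCr8). The Hba1 3′ probe (chr10:15584360-15584419) contains AATAAA, the polyadenylation hexamer. The Hba1 5′ probe (chr10:15585140-15585199) matched the first transcribed bases of RefSeq Hba-a1 in 34 of 34 bases. It matched those of Hba-a2 in 33 of 34 and those of Hba-a3 in 34 of 36. Hbz, the embryonic zeta chain, had 1 probe (chr10:15590914-15590973), which also holds AATAAA. The beta-like cluster on chromosome 1 held the other 7. The Hbb 5′ probe (chr1:161620134-161620193) matched the first 50 transcribed bases of RefSeq Hbb without a difference, and those of 4 other adult beta genes with 6 differences each. The Hbb 3′ probe (chr1:161584872-161584931) holds AATAAA and is listed for the mRNA of Hbb, Hbb-b1 and Hbbl1. The first Hbb-b1 probe (chr1:161590854-161590913) is listed for Hbb-b1 and Hbb-bs, and the second (chr1:161597660-161597719) for Hbb-b1. The Hbb 3′ probe and the first Hbb-b1 probe thus do not separate single adult beta genes. Both Hbb-b1 probes are mapped between the Hbb 5′ and Hbb 3′ probes, so these are not read as the ends of 1 gene. Hbg1, a gamma chain, had 1 probe (chr1:161641432-161641491), and the epsilon chains Hbe2 (chr1:161648636-161648695) and Hbe1 (chr1:161652643-161652702) had 1 each.

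The sequences of 4 probes are shown, because the results below turn on how far the embryonic-type probes follow the adult ones. In the second Hbb-b1 probe and the Hbe2 probe, capitals mark the 9 bases that differ within the 44 bases over which both probes can be laid on each other. This was the closest pair among all 10 probes, with 79.5% identity. In the Hbe1 probe, capitals mark the start codon.
Hbb-b1, second probe: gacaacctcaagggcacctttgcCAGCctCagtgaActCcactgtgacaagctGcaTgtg
Hbe2: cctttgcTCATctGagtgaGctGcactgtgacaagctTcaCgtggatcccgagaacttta
Hbg1: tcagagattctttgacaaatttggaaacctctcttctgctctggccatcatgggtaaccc
Hbe1: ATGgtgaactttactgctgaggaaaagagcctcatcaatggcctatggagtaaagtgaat

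RefSeq promoters were available here for 5 of the 7 gene names. The 120 bases before the transcription start on GRCr8 are shown for an adult alpha gene, an adult beta gene and the zeta gene, as an example of each class that is compared below. Capitals mark the letters CCAAT, the letters CACCC and the TATA box, searched as TATAAA and, for the form found in beta-globin genes, as CATAAA, on either strand. In the Hbb promoter, CCAAT stands directly after its own reverse complement.
Hba-a1 (chr10:15842581-15842700, minus strand): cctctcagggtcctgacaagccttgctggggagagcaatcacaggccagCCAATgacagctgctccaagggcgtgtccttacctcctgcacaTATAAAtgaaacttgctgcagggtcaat
Hbb (chr1:167663722-167663841, minus strand): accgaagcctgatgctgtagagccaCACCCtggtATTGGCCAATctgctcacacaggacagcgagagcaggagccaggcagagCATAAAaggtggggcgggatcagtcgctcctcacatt
Hbz (chr10:15849758-15849877, minus strand): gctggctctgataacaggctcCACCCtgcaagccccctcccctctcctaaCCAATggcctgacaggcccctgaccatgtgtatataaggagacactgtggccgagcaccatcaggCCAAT
Of the 11 hemoglobin promoters in the table, 10 held CCAAT, against 19.9% of all 33469 rat promoters, and 6 held CACCC, against 29.5%. TATAAA was in 7 of the 11 (6.7% of all) and CATAAA in 2 (5.3% of all). A match of letters is not a binding site.

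Of the 10 probes, 9 were bright enough to be tested. This required a Cy3 signal well above background on each of the 4 arrays of some group. Hbe1 was not well above background on any of the 24 arrays, with a log2 Cy3 signal between 3.20 and 4.70, and is not described further. The Hba1, Hbb, Hbb-b1 and Hbe2 probes, called the 7 bright probes below, were well above background on all 24 arrays with log2 Cy3 signals between 16.6 and 18.8. For any of them, between 0 and 45 probes of the same array were brighter. Together they held between 2.67% and 4.49% of the summed Cy3 signal of all probes, with a median of 3.66%. None of their spots was saturated or marked as an outlier. The Hbg1 probe was well above background on all 24 arrays with log2 Cy3 signals from 7.73 to 10.4. It was printed in 10 spots, whose Cy3 signal spanned a median 5.0-fold within an array, while the SD of their log2 ratio was only 0.109. Hbz was well above background on 20 of 24 arrays, and the 4 dim arrays were all on slide 2 (C-G0 replicate 3, C-G1 replicates 2 and 3, and LPS-G1 replicate 3). A probe's signal depends on its sequence, so these signals are not compared as amounts of mRNA.

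The arrays differed in brightness, with 7786 (C-G0 replicate 3) to 15385 (C-G0 replicate 4) probes above the background threshold in Cy3. The blood label was checked with lists of marker genes. Tested probes were present for 11 of 12 T cell genes, 5 of 7 B cell genes, 7 of 9 cytotoxic T and NK cell genes, 5 of 12 neutrophil genes, 6 of 8 monocyte genes and 9 of 10 platelet genes on the array. C-G1 replicate 2 stood apart from the other arrays of its group. The mean log2 ratio of 17 probes for red cell enzymes and reticulocyte genes was -1.32 on this array, while that of 11 T cell probes was 0.56.

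**Figure D1:**
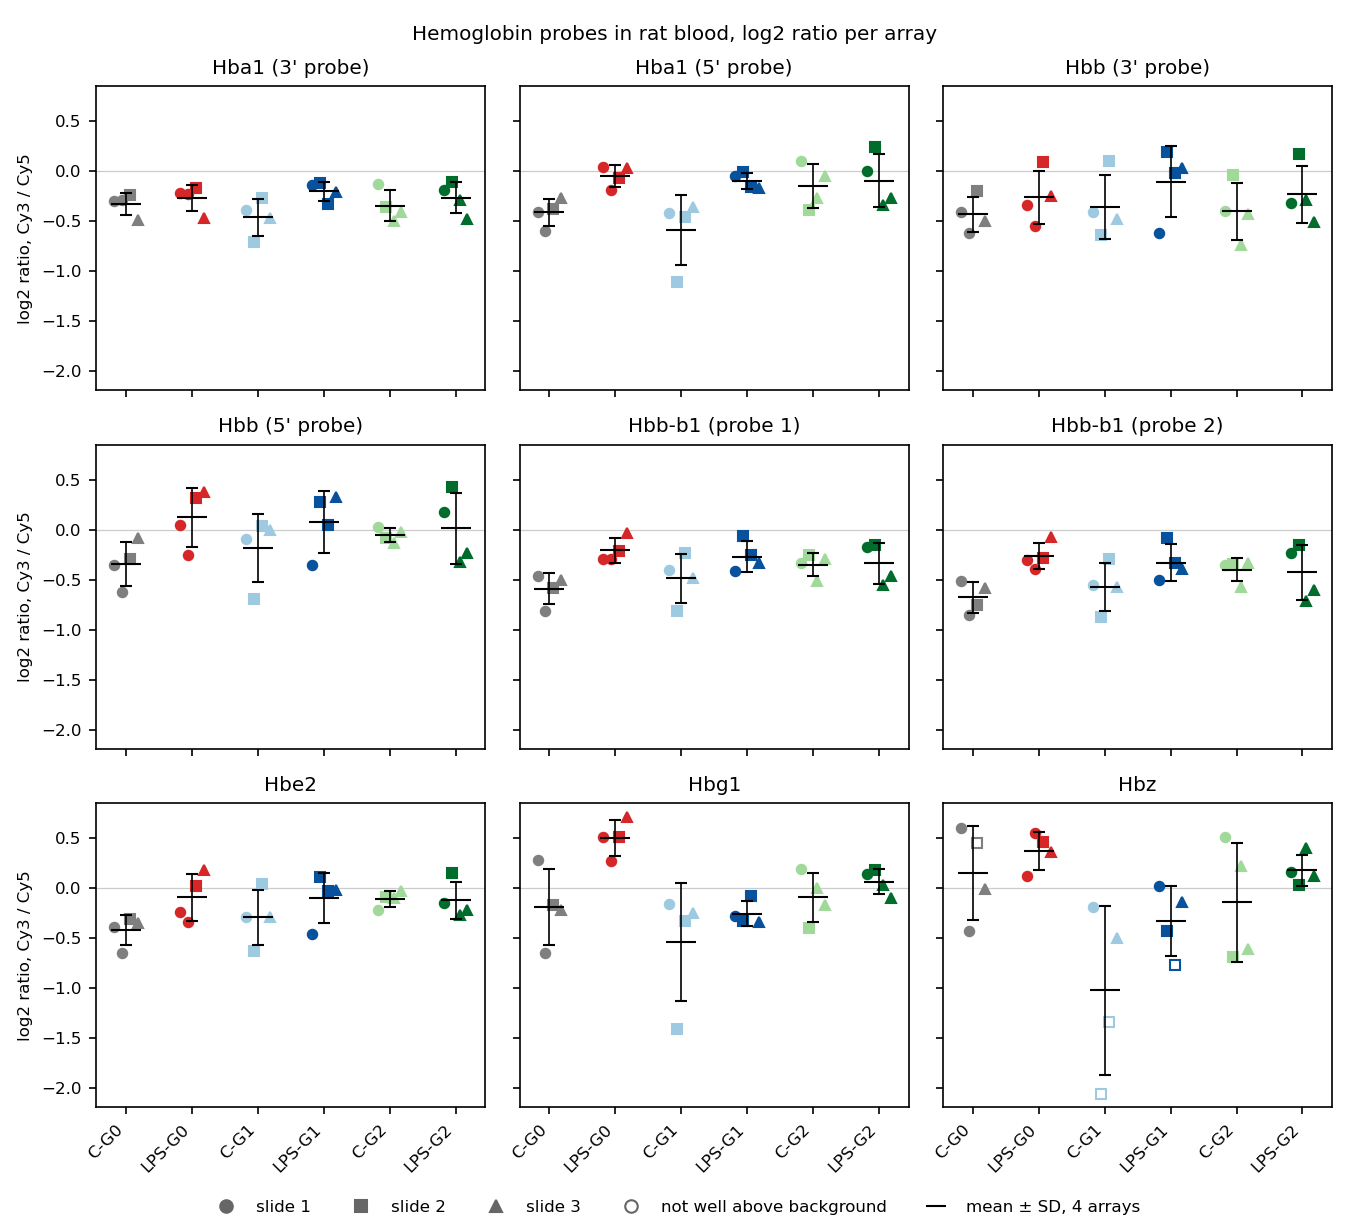
Log2 ratio of Cy3 (rat RNA) over Cy5 (reference) for the 9 hemoglobin probes tested, 1 point per array in 6 groups, with symbols for the 3 slides and the mean ± SD of 4 arrays. All LPS-G0 points of the Hbb-b1 probes and the Hba1 5′ probe lie above the C-G0 points, the mean of Hbg1 is highest in LPS-G0 (0.50), and the lowest points of Hbg1 (-1.41) and Hbz (-2.05) belong to 1 array, C-G1 replicate 2.

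On the control diet, the comparison of LPS-G0 with C-G0 asks whether LPS alone moved the hemoglobin transcripts. All 9 probes had a higher mean in LPS-G0, by 0.06 to 0.69 on the log2 scale and with a median of 0.36, where the median of all 10313 probes tested was 0.03. The difference was largest for Hbg1 and smallest for the Hba1 3′ probe. No hemoglobin probe was called, where a call needs a 2-fold change or more together with an adjusted p under 0.05 (0.0097% of all probes were called). The smallest adjusted p was 0.218. At an unadjusted p under 0.05, 5 of the 9 probes were higher, against 10.7% of all probes. The groups did not overlap for 3 of the 9, all higher in LPS-G0, against 3.82% of all probes. Within each of the 3 slides, the difference of LPS-G0 and C-G0 was above 0 for 9 of 9 probes. The LPS-G0 arrays of slides 2 and 3 are the 2 with conflicting labels. Without these 2 arrays, the median of the 7 bright probes was 0.24 in place of 0.36, with 1 of 7 below 0, and Hbg1 differed by 0.58 (adjusted p = 0.545). The probes share arrays, and several share sequence, so they are not independent.

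The adult alpha chain was measured by both Hba1 probes. For the Hba1 5′ probe, the log2 ratios in C-G0 replicates 1 to 4 were -0.41, -0.59, -0.38 and -0.26, and those in LPS-G0 were 0.04, -0.19, -0.07 and 0.03. The lowest LPS-G0 array (-0.19) lay above the highest C-G0 array (-0.26). The difference of 0.36 had a standard error of 0.14 and an adjusted p of 0.258, and the exact permutation test gave p = 0.0286, two-sided, the smallest that 4 arrays against 4 allow. The Hba1 3′ probe gave -0.29, -0.29, -0.24 and -0.49 in C-G0 and -0.22, -0.23, -0.17 and -0.46 in LPS-G0. Here the groups overlapped, and the difference was 0.06 (95% interval -0.21 to 0.33). The probes of the same gene thus differed in size, and the test of that difference was not made.

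Among the adult beta chains, the Hbb-b1 probes moved together. The first Hbb-b1 probe had log2 ratios of -0.46, -0.81, -0.58 and -0.50 in C-G0 and of -0.29, -0.30, -0.21 and -0.03 in LPS-G0. Its difference was 0.38 (standard error 0.14, adjusted p = 0.245), and that of the second Hbb-b1 probe 0.41 (standard error 0.16, adjusted p = 0.251). For both, the groups did not overlap (exact permutation p = 0.0286, two-sided). The Hbb 5′ probe was at -0.35, -0.62, -0.30 and -0.08 in C-G0 and at 0.05, -0.26, 0.32 and 0.38 in LPS-G0, a difference of 0.46 (standard error 0.21, adjusted p = 0.304) with groups that overlapped. The Hbb 3′ probe differed by 0.17 (95% interval -0.25 to 0.59).

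The embryonic-type chains were less alike. Hbe2 differed by 0.33 (standard error 0.16, adjusted p = 0.348), close to the adult beta probes. Its log2 Cy3 signal of 16.9 to 18.3 was also within their range. Whether the Hbe2 probe read adult beta mRNA was not tested. Hbg1 had the largest difference of the family. Its log2 ratios were 0.28, -0.65, -0.17 and -0.21 in C-G0 and 0.51, 0.28, 0.51 and 0.71 in LPS-G0. C-G0 replicate 1 reached the lowest LPS-G0 array, and the other C-G0 arrays lay below all 4. The difference was 0.69 (95% interval 0.33 to 1.05, adjusted p = 0.218, exact permutation p = 0.0571, two-sided). With 1 array left out it lay between 0.54 (without C-G0 replicate 2, adjusted p = 0.547) and 0.85 (without C-G0 replicate 1, adjusted p = 0.00680), and the adjusted p was under 0.05 only in the latter case. Hbz, at 0.60, -0.43, 0.45 and -0.01 in C-G0 and 0.12, 0.55, 0.46 and 0.36 in LPS-G0, differed by 0.22 (95% interval -0.24 to 0.68).

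The other genes of the red cell did not give one picture in this comparison. Of 17 tested probes for red cell enzymes and reticulocyte genes, 3 had an unadjusted p under 0.05 and were higher (10.7% of all probes were), and the median difference was 0.20. They included Hebp1, a heme-binding protein (0.54, adjusted p = 0.274), and Trim58, an erythroid ubiquitin ligase (0.70, adjusted p = 0.288). Klf1, the transcription factor that activates adult beta-globin, differed by 0.61 (adjusted p = 0.219), and Zfpm1, a cofactor of the erythroid factor Gata1, by -0.59 (adjusted p = 0.239). The median was 0.04 over 10 probes for heme synthesis and 0.11 over 14 probes for the globin chaperone and erythroid transcription factors. It was -0.09 over 16 probes for the red cell membrane and skeleton. None of these lists had a called probe. In the membrane and skeleton list, Dmtn differed by 1.03 (adjusted p = 0.244) and Epb4.1 by -0.78 (adjusted p = 0.258). Among the genes that clear hemoglobin and heme, haptoglobin (Hp), which binds free hemoglobin in plasma, differed by 0.97 (adjusted p = 0.251) and Hmox1, which degrades heme, by 0.50 (adjusted p = 0.276), but the median of the 9 probes of this list was 0.00. Marker lists of other blood cells were measured in the same comparison. The medians were -0.04 over 11 T cell probes, -0.12 over 6 B cell probes, 0.04 over 7 monocyte probes and -0.01 over 11 platelet probes. All 8 probes for cytotoxic T and NK cells were higher at an unadjusted p under 0.05 (10.7% of all probes), with a median of 0.995, and 3 of 5 neutrophil probes were lower at that threshold (4.44% of all probes), with a median of -0.55. The array mean of the cytotoxic list lay between -1.50 and 0.01 in C-G0 and between -0.03 and 0.67 in LPS-G0. The part of the white cell genes in the hemoglobin values was not tested.

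LPS-G1 vs. LPS-G0 asks whether the G1 diet changed these transcripts in rats given LPS. The 4 LPS-G0 arrays are the same as in the comparison above. The dim embryonic-type chains Hbg1 and Hbz were lower in LPS-G1 by 0.75 and 0.70 on the log2 scale, while the 7 bright probes differed by -0.06 to 0.16, with a median of -0.05. No probe was called (0.989% of all probes were). Of the 9, Hbg1 alone had an adjusted p under 0.05, where 8.39% of all probes were lower at that threshold. At an unadjusted p under 0.05, Hbg1 and Hbz were lower, against 19.3% of all probes. The groups did not overlap for Hbg1 and Hbz, 2 of 9 probes, against 14.6% of all probes that were lower without overlap. These counts are near the shares of all probes, so they do not set the hemoglobin probes apart from the rest of the array. Within slides 1, 2 and 3, 7, 6 and 7 of the 9 probes were below 0.

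Hbg1 had log2 ratios of -0.28, -0.32, -0.07 and -0.34 in LPS-G1 replicates 1 to 4. The 4 LPS-G1 arrays were close to each other, and every one was below the lowest LPS-G0 array at 0.28. The difference of -0.75 (95% interval -1.12 to -0.39) had an adjusted p of 0.0289 from limma and an exact permutation p of 0.0286, two-sided. It was under 2-fold. The difference was -0.67, -0.71 and -1.05 within slides 1, 2 and 3. The adjusted p did not stay under 0.05 in several other fits. It was 0.105 with all 24 arrays in the fit and 0.134 when the LPS-G0 arrays with conflicting labels were left out. With 1 array left out it lay between 0.0211 and 0.105, and it was over 0.05 for 6 of 8 arrays (LPS-G0 replicates 1, 2 and 4 and LPS-G1 replicates 2, 3 and 4).

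Hbz was at 0.03, -0.43, -0.77 and -0.14 in LPS-G1, where replicate 3 was not well above background, and all 4 arrays were below the lowest LPS-G0 array at 0.12. The difference was -0.70 (95% interval -1.15 to -0.24, adjusted p = 0.0533, exact permutation p = 0.0286, two-sided). Within slides 1, 2 and 3 it was -0.31, -1.06 and -0.50.

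For the 7 bright probes, the widest 95% interval of the difference was -0.48 to 0.39, for the Hbb 5′ probe, that of the Hbb 3′ probe was -0.26 to 0.57, and that of the second Hbb-b1 probe was -0.39 to 0.26. This result depended on the balancing of the dyes. Without the Lowess step, with each array centered on its median, all 7 were lower in LPS-G1, by 0.11 to 0.37, with a median of -0.27. In the Cy3 channel alone the median was -0.16, again with 7 of 7 below 0. Lowess moved the bright probes most. The ratio without it minus the ratio with it had a median between -0.52 and -0.63 for each bright probe and ranged from -1.29 to 0.21 over arrays, whereas the median was 0.01 for Hbg1 and -0.00 for Hbz. Whether the bright chains were lower in LPS-G1 can therefore not be read from these arrays.

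**Figure D2:**
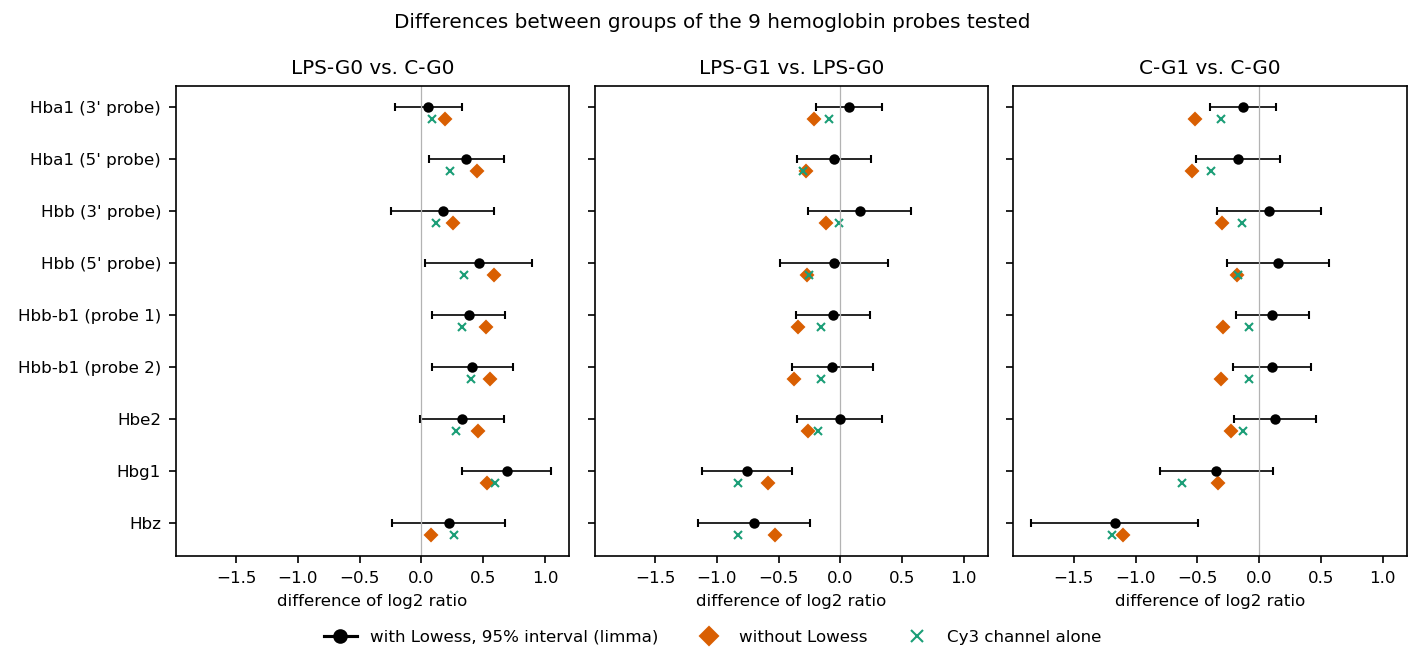
Differences of mean log2 ratio for the 9 hemoglobin probes tested in 3 comparisons, with 95% intervals from limma (black), without the Lowess dye balance (orange) and in the Cy3 channel alone (green). In LPS-G1 vs. LPS-G0 the black points of the 7 bright probes lie between -0.06 and 0.16 and the orange ones between -0.37 and -0.11, while Hbg1 and Hbz lie well below 0 under all 3.

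Other red cell genes were called lower in LPS-G1, in 2 of the 4 red cell lists. Of 17 probes for red cell enzymes and reticulocyte genes, 5 were called, all lower (0.805% of all probes were called lower), and the median was -0.51, where the median of all probes was 0.06. They included Hebp1 (-1.16, adjusted p = 0.0289), the carbonic anhydrase Ca1 (-1.08), the erythroid ubiquitin ligase Trim10 (-1.21) and Fhdc1 (-1.01). Of 16 membrane and skeleton probes 3 were called, all lower, with a median of -0.54. These were Dmtn, which bundles actin in the red cell skeleton (-1.61, adjusted p = 0.0289), the glycophorin Gypc (-1.05) and the blood group protein Kel (-1.21). Heme synthesis (10 probes, median -0.47) and the chaperone and transcription factor list (14 probes, median -0.33) had no called probe. In the first of these, Urod was lower by 0.73 (adjusted p = 0.0443), and in the second Klf1 was lower by 0.81 (adjusted p = 0.0289). Gypc and Dmtn also occur outside red cells. The hemoglobin and heme clearance list had a median of 0.02 over 9 probes, with 0 of them at an unadjusted p under 0.05. The medians of the marker lists were 0.24 (T cells), 0.29 (B cells), 0.29 (neutrophils), 0.13 (monocytes), -0.24 (cytotoxic T and NK cells) and 0.01 (platelets), with no called probe, and their part in the hemoglobin values was not tested.

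On the G2 diet, in LPS-G2 vs. LPS-G0 with the same LPS-G0 arrays, 7 of 9 hemoglobin probes were lower and 2 higher, with a median of -0.11, and no probe of the array was called (0% of all). The direction differed between slides, with 2, 2 and 8 of the 9 probes below 0 within slides 1, 2 and 3. Hbg1 was the 1 probe with an unadjusted p under 0.05 (5.61% of all probes were lower at that threshold). Hbg1 was at 0.14, 0.19, 0.04 and -0.10 in LPS-G2. All 4 arrays lay below the lowest LPS-G0 array, as for 7.73% of all probes. Its difference was -0.26, -0.32 and -0.74 within slides 1, 2 and 3. Over all arrays it was -0.44 (95% interval -0.80 to -0.07, adjusted p = 0.597, exact permutation p = 0.0286, two-sided). Hbz differed by -0.19 (95% interval -0.65 to 0.26), and the 7 bright probes by -0.16 to 0.03. Without Lowess the bright probes differed by -0.45 to -0.23, all of them below 0.

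Between the diets, in LPS-G2 vs. LPS-G1, Hbz was higher in LPS-G2, at 0.16, 0.03, 0.40 and 0.12. All 4 arrays were above the highest LPS-G1 array at 0.03, as for 3.41% of all probes, although the nearest arrays of both groups differed by less than 0.01. The difference was 0.51 (95% interval 0.05 to 0.96, adjusted p = 0.679, exact permutation p = 0.0286, two-sided). Hbz was the 1 probe of the family at an unadjusted p under 0.05 (4.52% of all probes were higher at that threshold), and its difference was 0.14, 0.63 and 0.40 within slides 1, 2 and 3. Hbg1 differed by 0.32 (95% interval -0.04 to 0.68) and the bright probes by -0.13 to 0.00. No probe of the array was called in this comparison (0%). Within slides 1, 2 and 3, 8, 9 and 2 of the 9 probes were above 0.

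Within the G1 diet, LPS-G1 vs. C-G1, all 9 probes were again higher with LPS, with a median of 0.26 (median of all 10708 probes tested 0.03), and none was called (0.00934% of all). The median of the 7 bright probes was 0.25, and it was 0.14 without C-G1 replicate 2, 0.11 without slide 2 and 0.49 without Lowess. The Hba1 5′ probe was at -0.42, -1.10, -0.45 and -0.36 in C-G1 and at -0.05, -0.01, -0.16 and -0.17 in LPS-G1. The groups did not overlap, as for 1.33% of all probes that were higher, and the difference was 0.49 (95% interval 0.15 to 0.83, adjusted p = 0.950, exact permutation p = 0.0286, two-sided). Without C-G1 replicate 2 it was 0.31. Hbz differed by 0.69 (95% interval 0.02 to 1.37, adjusted p = 0.950) with 2 dim arrays in C-G1, and by 0.35 without C-G1 replicate 2. Hbg1 differed by 0.28, and by -0.01 without C-G1 replicate 2. The Hba1 5′ probe and Hbz were the 2 probes with an unadjusted p under 0.05 (1.99% of all probes were higher at that threshold). Within slides 1, 2 and 3, 4, 9 and 8 of 9 probes were above 0. On the G2 diet, LPS-G2 vs. C-G2, 7 of 9 were higher and 2 lower, with values from -0.03 to 0.32, and none was called (0% of all), at an unadjusted p under 0.05 (1.09% of all) or without overlap (1.07% of all). Within slides 1, 2 and 3, 5, 9 and 4 of 9 were above 0. The LPS effect on the G1 diet minus that on the control diet had values from -0.41 to 0.47, and the same difference for the G2 diet from -0.53 to 0.10, with 0 of 9 probes at an unadjusted p under 0.05 in either (3.01% and 5.57% of all probes). The smallest adjusted p was 0.999 and 0.832. A difference of the LPS effect between diets was therefore not detectable with 4 arrays per group.

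In rats without LPS, Hbz had a lower mean in C-G1 than in C-G0, with dim arrays in both groups. It was at -0.18, -2.05, -1.34 and -0.50 in C-G1, with replicates 2 and 3 not well above background, as was C-G0 replicate 3, and the groups overlapped. The values of these arrays are near background, so the size of the difference is uncertain. The difference was -1.17 (95% interval -1.85 to -0.50, adjusted p = 0.104, exact permutation p = 0.0571, two-sided), and none of the 9 probes was called (0.028% of all). Hbz alone of the 9 had an unadjusted p under 0.05 (15.8% of all probes were lower at that threshold). Its difference was -0.27, -2.14 and -0.49 within slides 1, 2 and 3, so that it was largest on slide 2, where all 3 arrays of these groups lay on which Hbz was not well above background, and without C-G1 replicate 2 it was -0.83. Hbg1 differed by -0.35 (95% interval -0.81 to 0.11), and by -0.05 without C-G1 replicate 2. The bright probes differed by -0.17 to 0.15, and without Lowess by -0.54 to -0.18. The red cell lists had medians of -0.88 (heme synthesis), -0.58 (chaperone and transcription factors), -0.995 (membrane and skeleton) and -0.64 (enzymes and reticulocyte genes), and 1 probe was called, the skeleton protein Add2 (-1.002, adjusted p = 0.0271). C-G1 replicate 2 carried part of this. The difference of the list means was -0.70, -0.50, -0.92 and -0.66 in the same order, and -0.44, -0.24, -0.62 and -0.39 without that array. The cytotoxic list had a median of 0.62 and the T cell list one of 0.29, where the median of all probes was 0.02. In C-G2 vs. C-G0 the bright probes differed by -0.02 to 0.31, with a median of 0.26. The median was 0.06 without Lowess, with a range of -0.19 to 0.15, and 0.03 in Cy3 alone. None of the 9 was called (0.028% of all). Hbe2 was at -0.22, -0.09, -0.09 and -0.03 in C-G2 and at -0.38, -0.64, -0.30 and -0.34 in C-G0, without overlap, as for 1.34% of all probes that were higher. The difference was 0.31 (95% interval -0.02 to 0.64, adjusted p = 0.411, exact permutation p = 0.0286, two-sided), and 0.15 without Lowess. Hbz differed by -0.29 and Hbg1 by 0.10.

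Across the 6 groups, the mean log2 ratio of Hbg1 was 0.50 ± 0.18 (SD, n = 4) in LPS-G0, 0.07 ± 0.12 in LPS-G2, -0.09 ± 0.25 in C-G2, -0.19 ± 0.38 in C-G0, -0.25 ± 0.12 in LPS-G1 and -0.53 ± 0.59 in C-G1. Of neighbors in this order, only LPS-G0 and LPS-G2 did not overlap. Hbz had the order LPS-G0 (0.37 ± 0.19), LPS-G2 (0.18 ± 0.16), C-G0 (0.15 ± 0.47), C-G2 (-0.14 ± 0.59), LPS-G1 (-0.32 ± 0.35) and C-G1 (-1.02 ± 0.84), and all neighbors overlapped. The mean of the 7 bright probes was -0.46 in C-G0, -0.42 in C-G1, -0.26 in C-G2, -0.21 in LPS-G2, -0.14 in LPS-G0 and -0.14 in LPS-G1. The ratio to the pooled blood RNA was below 0 on all 24 arrays for the Hba1 3′ probe and both Hbb-b1 probes, and on 13 to 19 arrays for the other 4 bright probes. The level of these ratios depends on the dye balance, as the values without Lowess above show. Their sign is therefore not read as less mRNA than in the pool.

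The arrays of a group were also compared among themselves. With the group means removed, Pearson's r over the 24 arrays was 0.97 between the Hbb-b1 probes and ranged from 0.654 to 0.97 among the 5 bright probes of the beta cluster, Hbe2 included. Hbe2 followed the Hbb 5′ probe (r = 0.87) more than Hbg1 (r = 0.51) or Hbz (r = 0.04). The Hba1 probes had an r of 0.56 with each other. Hbz had an r of -0.136 to 0.484 with the 7 bright probes, and 0.72 with Hbg1. These are descriptions, since the points share slides, depth and the Lowess step of each array.

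**Figure D3:**
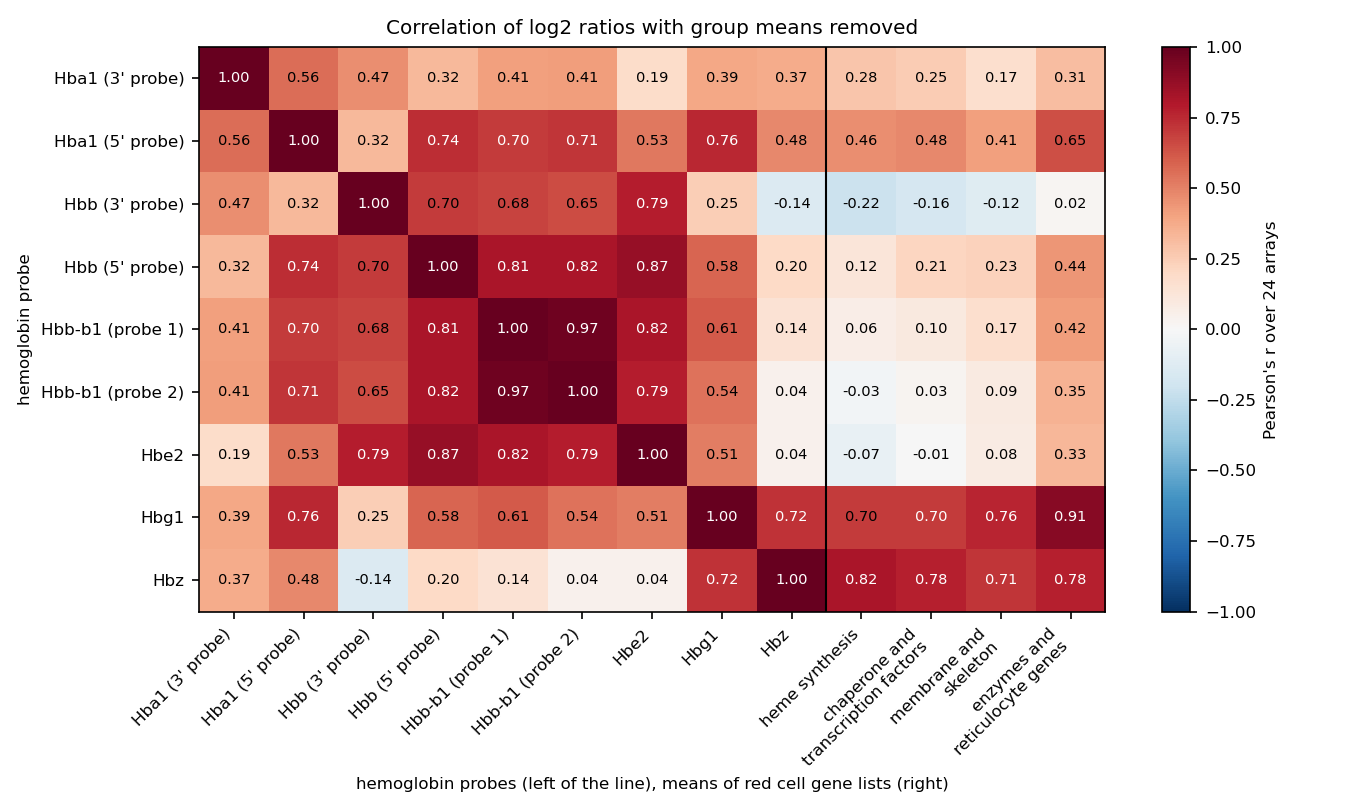
Pearson's r of log2 ratios over 24 arrays with group means removed, between the 9 hemoglobin probes tested (left of the line) and with the means of 4 lists of other red cell genes (right). The 5 bright probes of the beta cluster form a block with r of at least 0.654, while Hbg1 and Hbz have r of at least 0.698 with all 4 lists. All ratios are with Lowess.

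The same measure was taken between the hemoglobin probes and the means of the gene lists. The r of Hbg1 was 0.91 with the mean of the red cell enzymes and reticulocyte genes, 0.76 with that of the membrane and skeleton genes, and 0.70 with each of the heme synthesis and the chaperone and transcription factor lists. Hbz had an r of 0.82 with heme synthesis and between 0.71 and 0.78 with the others. The mean of the adult beta probes had an r between -0.03 and 0.32 with these lists. That of the adult alpha probes had an r between 0.36 and 0.58. All of these were taken with Lowess. Ratios with and without Lowess had an r of 0.727 to 0.845 for the single adult probes, 0.973 for Hbg1 and 0.988 for Hbz. Whether the contrast between adult and embryonic-type probes holds without Lowess was not tested. Other lists had sizeable r too. Hbg1 had an r of 0.69 with the platelet list, 0.58 with the clearance list and -0.58 with the T cell list. Hbz had 0.59, 0.46 and -0.45 with these. The adult alpha mean had an r of 0.66 with the clearance list and 0.48 with the platelet list, and the adult beta mean 0.36 with each. C-G1 replicate 2 was low for the hemoglobin probes and the red cell lists. Without it, the r of Hbg1 was 0.51 with heme synthesis, 0.50 with the chaperone and transcription factor list, 0.61 with membrane and skeleton genes and 0.84 with enzymes and reticulocyte genes. Hbz then had r between 0.60 and 0.75 with these lists, the alpha probes between 0.01 and 0.32 and the beta probes between -0.36 and 0.07. With the platelet list, the r without this array was 0.48 for Hbg1, 0.41 for Hbz, 0.197 for the alpha mean and 0.159 for the beta mean. With the clearance list it was 0.446, 0.319, 0.565 and 0.232 in the same order.

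**Figure D4:**
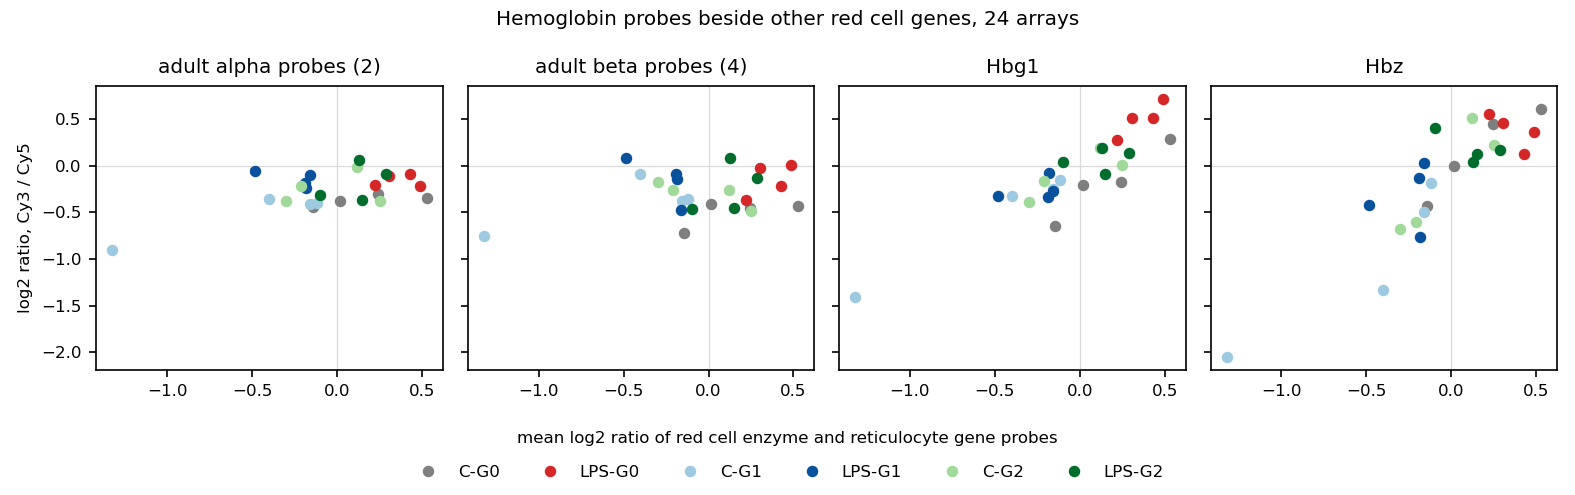
Log2 ratio of the adult alpha probes (mean of 2), the adult beta probes (mean of 4), Hbg1 and Hbz on each of the 24 arrays against the mean log2 ratio of 17 probes for red cell enzymes and reticulocyte genes, colored by group. Arrays with a higher list mean have higher Hbg1 (r = 0.91 with group means removed) and Hbz (0.78). For the adult beta probes r is 0.32, and the array at the lower left is C-G1 replicate 2. All ratios are with Lowess.

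The genes whose ratios were most like the adult chains were named by the same measure, over 24 arrays and among 9248 probes of other named genes. For the mean of the adult alpha probes they were Paip2, which holds back translation by binding the poly(A)-binding protein (r = 0.85), Paip2l1 (0.84), LOC687622 (0.81), the nuclear antigen Sp100 (0.80) and Spata31d1d (0.79). For the mean of the adult beta probes the nearest was LOC689064 (r = 0.87), a beta-globin mRNA by its description that the naming rule does not reach. It was followed by Rsu1 (0.82), Brdt (0.82), Gnas (0.81) and Slc30a3 (0.80). None of the heme synthesis, membrane or reticulocyte genes was among these 10. These lists held only 10, 16 and 17 tested probes, so their absence says little.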

How the data were processed

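Rat blood RNA was measured on 24 two-color Agilent rat arrays. The authors ran Agilent Feature Extraction, and the deposited intensity of each channel and the deposited log10 ratio are its output after background subtraction and Lowess dye normalization per array. The file headers give version 10.10.1.1 and the submitters' notes 10.7.3.1. The deposited value table was identical to the single arrays for 1511424 of 1511424 values. The flags for spots well above background, saturated spots and outliers in the deposited files are other columns, used as given by the authors. Sign-reversed log10 ratios were converted to log2 here. Of 58717 spots that were not controls, outlier spots (679 to 1133 per array) were left out, and spots of 1 probe were averaged. A probe was tested where its Cy3 signal was well above background on each array of some group (10313 for 16 arrays, 10708 for 24).

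The models were those of limma 3.58.1 (R 4.3.3), with Benjamini-Hochberg adjustment over all probes tested. The fit of 16 arrays (C-G0 and the LPS groups) gave the comparisons among them, and the fit of 24 arrays all others. Calls needed a 2-fold change or more and an adjusted p under 0.05. The exact permutation test used the 70 arrangements of 8 arrays. The fits were tested on simulated data. The labels call the arrays of a group biological replicates, and precision is limited by having 4 arrays per group. The alternatives were normexp with an offset of 50, no Lowess, Cy3 alone, other filters, blocks, weights and arrays left out. List means without C-G1 replicate 2 were an alternative chosen after seeing the data. The members, gene lists and tests were chosen with earlier results of these data known. Every hemoglobin probe is accounted for, and from each list the called probes and otherwise up to 2 with the smallest p were eligible to be named. The text names some of these, and 1 called probe is not reported here by name. The 5 probes most correlated with the adult alpha and the adult beta mean are given.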

Additional observations from a re-analysis of the deposited data

Results flagged for a closer look

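In each group of 4 arrays, the highest and the lowest array were compared with the others for each of the 9 hemoglobin probes tested. Of the 54 sets of 4 arrays, 3 held an array far from the rest. Chance flags about 1 set in 20, so 3 of 54 is near what chance alone gives. Hbg1 was at -1.41 in C-G1 replicate 2, against -0.32 to -0.15 on the other 3 arrays of the group. The Hba1 5′ probe was at -1.10 on the same array, against -0.45 to -0.36. On this array the means of the red cell lists were between -1.22 and -1.57. The second Hbb-b1 probe was at -0.57 in C-G2 replicate 3, against -0.35 to -0.33.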

How the results depend on the processing

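The counts of called hemoglobin probes were 0 in all 10 comparisons and in 227 of 229 alternatives. Both exceptions were in C-G1 vs. C-G0, where Hbz was called, which gives a count of 1, with the replicate block (adjusted p = 0.0420) and without C-G0 replicate 4 (adjusted p = 0.0402), so that the range with 1 array left out was 0 to 1. Same-numbered arrays were not paired by the check: in no comparison did all 4 pairs of numbers have a correlation over 0.1 (0 to 3 of 4), and the replicate block moved no other count. Signs were followed for 25 chosen single differences. They were those of LPS-G0 vs. C-G0, the pairwise ones of Hbg1 and Hbz, and others without overlap or with an unadjusted p under 0.05. Most bright-probe differences of the other comparisons were not among them. In C-G1 vs. C-G0, 2 of 7 bright probes were below 0 with Lowess and 7 of 7 without it (medians 0.10 and -0.30). Of 543 alternatives for the 25 chosen differences, 536 kept the sign. Those that turned were small. In LPS-G0 vs. C-G0 the Hba1 3′ probe was at -0.0108 with normexp and the Hbb 3′ probe at -0.0105 without the arrays of conflicting labels. Hbg1 was at -0.0112 in LPS-G2 vs. C-G2 in Cy3 alone and at 0.0692 in C-G1 vs. C-G0 with array weights. With 1 array left out, it ranged from -0.0569 (without C-G0 replicate 2) to 0.253 in C-G2 vs. C-G0 and from -0.0108 (without C-G1 replicate 2) to 0.408 in LPS-G1 vs. C-G1. In the latter it was -0.104 without slide 2, an alternative chosen after the data were seen. For Hbg1 in LPS-G1 vs. LPS-G0 the adjusted p was 0.0991 without Lowess, 0.334 in Cy3 alone, 0.0843 without a filter, 0.306 without slide 2 and 0.149 by Tukey's HSD, the test of the methods, and 0.0158 with normexp, 0.0499 with slide as a block and 0.00123 with array weights. The cause was not tested. Hbg1 in LPS-G0 vs. C-G0 had an adjusted p of 0.00983 with array weights and of 0.00680 to 0.547 with 1 array left out. Ratios of the bright probes carry the Lowess step, and those of Hbz the low signal on slide 2.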
